A study of Mus musculus with 5 samples.

Results

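The transcriptome of an LLC tumor treated with the high-dose combination, BMN/PAZA-2, was compared with that of a tumor treated with BMN alone. BMN (BMN673) inhibits PARP, the enzyme family that marks DNA breaks with poly-ADP-ribose, and PAZA is a polymer carrier to which azacytidine, an inhibitor of DNA methyltransferases, is conjugated. BMN/PAZA-2 is the carrier loaded with BMN at the higher of the doses used, so both groups received BMN. The labels give no dose for the BMN group. Where the study's captions name the dose of BMN alone for sequenced tumors, it is the lower one, so the dose of BMN and the carrier with its azacytidine cannot be told apart here. The comparison used 2 of the 5 samples of the series. Each group was 1 library, and the other groups were Control, PAZA alone and a low-dose combination. The study describes subcutaneous tumors of LLC, a mouse Lewis lung carcinoma line, in young female C57BL/6 mice that were injected intravenously several times and sampled one day after the last dose. The sample labels instead describe LLC cells in culture treated for 72 h, and give lung as the source.

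The table that holds both libraries lists 16155 gene symbols, of which 14460 were above 0 in at least 1 library and made up the comparison. Its values carry no unit and were read as FPKM, fragments scaled to gene length and to the size of the library. Read counts and the depth of each library are unknown, and as each group is a single library, no test was possible and no p-value is given. Differences are given as the log2 ratio of BMN/PAZA-2 to BMN after 1 was added to each value, minus the median of all symbols, which was −0.10. This is called the centred log2 ratio. A gene is called 2-fold higher or lower at 1 or −1 on that scale, and the scale understates the difference of weakly expressed genes. In BMN/PAZA-2, 381 symbols (2.63%) were at least 2-fold higher and 316 (2.19%) at least 2-fold lower. As deposited, without centring, the split was 294 higher (2.03%) and 440 lower (3.04%).

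A PARP inhibitor traps PARP on broken DNA, which then depends on homologous recombination for repair. Azacytidine, once phosphorylated by uridine-cytidine kinase and reduced to the deoxy form, is built into DNA and captures DNMT1, the enzyme that copies methylation to the new strand. The genes of both drug routes were therefore described first, followed by DNA repair, tissue and immune markers, and the classes of RNA that lay farthest apart.

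**Figure D1:**
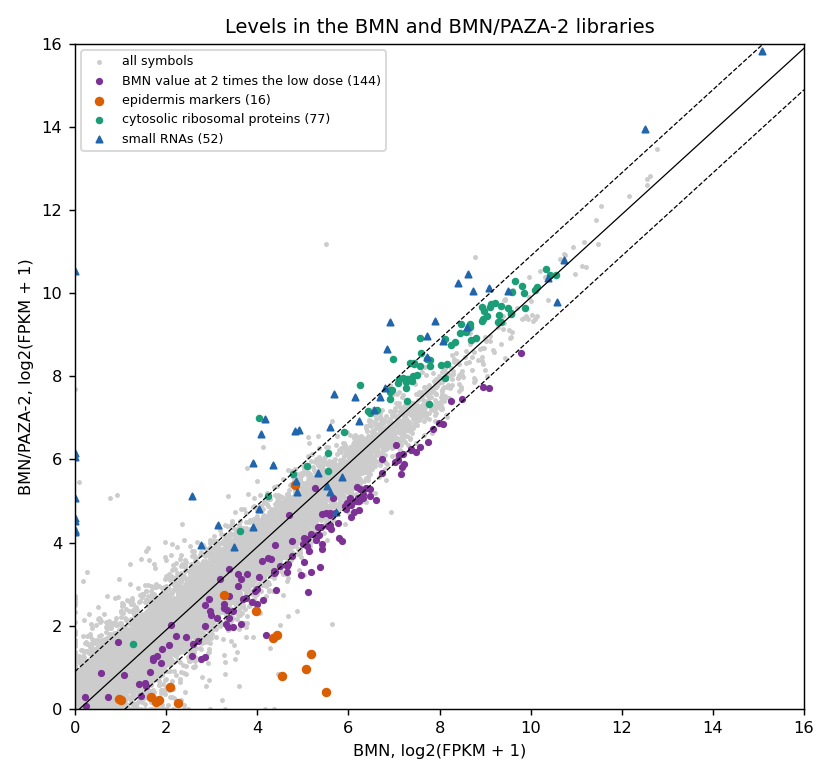
Each point is 1 gene symbol, with log2(FPKM + 1) in the BMN library on the x axis and in the BMN/PAZA-2 library on the y axis. The solid line is the median ratio and the dashed lines mark 2-fold differences from it. Epidermis markers lie below the lower line for 12 of 16 genes, against 2.19% of all symbols. Small RNAs lie above the upper line for 31 of 52, against 2.63% of all symbols.

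Before any gene is named, 144 symbols have to be set apart. For these the BMN value stood within 0.2% of 2 times the value of the low-dose combination, taken from the table with PAZA and rescaled by 1.047, the median ratio of that library between its tables. At neighbouring multiples far fewer symbols stood this close, 12 at 1.9 times and 7 at 2.1 times. Within 0.02% the count at 2 times was still 132, against 0 at 1.9 times and 3 at 2.1 times. All 29 BMN values written with more than 6 significant digits belonged to these 144 symbols, and no BMN/PAZA-2 value had more than 6. The low-dose library itself differed by 0.5% or more between the table with BMN and the table with PAZA for 131 of the 132 symbols, and for 1 of the 12 symbols that lay between 0.02% and 0.2%. What made these values was not tested. For the 132 symbols the BMN value equals 2 times a value of another library, and some of the 12 others may lie in the window by coincidence.

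**Figure D2:**
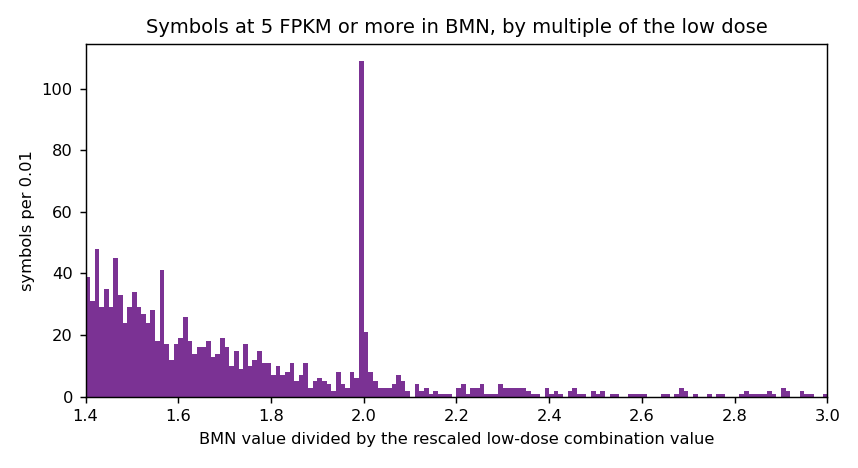
Number of symbols, among those at 5 FPKM or more in BMN, by the BMN value divided by the rescaled low-dose combination value, in steps of 0.01. The pair of steps around 2 holds 130 symbols, whereas no other step from 1.9 to 2.1 holds more than 8.

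Among the lists, excision, mismatch and end-joining repair held 12 of the 144 symbols and DNA replication 11. Of the 144 symbols 136 were lower in BMN/PAZA-2, with a median centred log2 ratio of −0.96, and 64 were called 2-fold lower, which is 20.3% of all 2-fold lower symbols. Fen1 encodes the nuclease that cuts flaps during replication and base excision repair. Fen1 was listed at 20.4 FPKM in BMN, 9.73 in the low-dose combination by the table with PAZA (12.4 by the table with BMN) and 6.29 in BMN/PAZA-2. Rad52, a recombination mediator, had 10.1 FPKM in BMN, 4.84 (6.83 by the table with BMN) in the low-dose combination and 2.90 in BMN/PAZA-2. Pcna, the sliding clamp of the replication fork, was listed at 495 FPKM in BMN, 236 (366 by the table with BMN) in the low-dose combination and 213 in BMN/PAZA-2. Of the 13 measured Polr2 genes, 10, subunits of RNA polymerase II, carried the multiple, with a median of −1.01, whereas the 3 others had a median of 0.0085. Among the 5 genes of replication factor C the multiple was found in 4, and among the Taf genes, which encode subunits and partners of TFIID, in 6 of 23. With the BMN value of the 144 symbols divided by 2, their median was −0.042 and 2 remained 2-fold lower. By the rule that set these symbols apart, the divided value is close to the rescaled low-dose value. The median of −0.042 therefore compares BMN/PAZA-2 with the low-dose combination and gives no corrected difference from BMN. In what follows, gene counts of a list are given with and without the 144 symbols where it contains any.

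The 9 drug target genes included the PARP enzymes, poly-ADP-ribose hydrolases, DNA methyltransferases and Uhrf1, and none carried the multiple. Their median was −0.096, with 3 genes higher and 6 lower. Dnmt1 was the only 1 of them at a 2-fold difference, on the lower side, against 2.19% of all symbols. It lies on chromosome 9 from 20907209 to 20959888 (GRCm38) and had 78.2 FPKM in BMN and 30.9 in BMN/PAZA-2, a centred log2 ratio of −1.21. The other libraries had 84.8 FPKM in Control, 56.2 in PAZA and 46.0 in the low-dose combination, so the 3 libraries with the carrier were the 3 lowest. The de novo enzyme Dnmt3a had 6.41 FPKM in BMN and 5.84 in BMN/PAZA-2, and Dnmt3b was below 0.14 FPKM in both. Uhrf1, which brings DNMT1 to half-methylated sites, had 50.7 and 44.1 FPKM.

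Parp1, which makes most of the poly-ADP-ribose at breaks, had 18.5 FPKM in BMN and 14.4 in BMN/PAZA-2. Parp2 had 9.83 and 10.5 FPKM, and Parp3 had 16.5 and 11.4 FPKM. Parg, which removes the polymer, had 38.1 and 29.0 FPKM. Adprhl2, which removes the last ADP-ribose from serine, had 0.916 and 1.10 FPKM. All 5 stayed within 2-fold.

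In the DNA methylation list of writers, readers and erasers, 17 genes had a value, of which 13 were lower and 4 higher in BMN/PAZA-2. Their median was −0.21. Dnmt1 was the 1 gene past 2-fold, against 2.19% of all symbols on the lower side. Tet2, which oxidises methylcytosine, had 5.73 FPKM in BMN and 2.61 in BMN/PAZA-2. Mbd1, a reader of methylated CpG, had 9.39 and 5.17 FPKM, and Hells, a remodeler needed for methylation of repeats, had 163 and 107 FPKM. These genes had centred ratios of −0.80, −0.65 and −0.51.

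Azacytidine enters cells through nucleoside transporters and is then phosphorylated. Of 15 measured genes of its uptake, activation and breakdown, 13 were lower and 2 higher, with a median of −0.32 over all and −0.30 without Cda and Rrm2b, which carried the multiple. Without them 11 were lower, 1 of them 2-fold against 2.19% of all symbols, and 2 higher. Uck2, the kinase that starts the activation, had 61.8 FPKM in BMN and 43.2 in BMN/PAZA-2. Uck1 had 3.59 and 2.42 FPKM, and Uckl1 had 4.10 and 3.26 FPKM. Cmpk1, the kinase of the next step, had 187 and 141 FPKM. These kinases were all lower by less than 2-fold.

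The subunits of ribonucleotide reductase that make the deoxy form, Rrm1 and Rrm2, had 41.5 and 33.9 FPKM and 74.0 and 56.5 FPKM. Dctd, a deaminase of deoxycytidine monophosphate, had 11.8 FPKM in BMN and 4.49 in BMN/PAZA-2, a centred ratio of −1.12. Samhd1, which degrades deoxynucleoside triphosphates, had 71.5 and 43.7 FPKM. Dck, which phosphorylates deoxycytidine, had 9.29 and 7.26 FPKM. Only Dctd and the excluded Cda passed 2-fold on the lower side.

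Transporter values were low in both libraries. The equilibrative transporter Slc29a1 had 1.08 FPKM in BMN and 0.165 in BMN/PAZA-2. Slc29a2 had 0.485 and 1.82 FPKM, the 1 gene of the list called 2-fold higher, against 2.63% of all symbols. Of the concentrative transporters, Slc28a2 had 0.852 and 0.790 FPKM, and Slc28a3 had 0.504 FPKM and was listed at 0 in BMN/PAZA-2. Cda, which inactivates the drug by deamination, was listed at 5.82 and 1.31 FPKM, and Rrm2b at 12.5 and 5.38 FPKM, both with the BMN value at the multiple. Of 7 drug efflux pumps, 4 were higher and 3 lower with none past 2-fold, among them Abcg2 at 8.48 and 13.4 FPKM and Abcb1a at 0.674 and 1.25 FPKM.

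Homologous recombination and Fanconi genes, the routes on which cells under a PARP inhibitor depend, did not lie apart as a list. Of 33 genes, 14 were higher and 19 lower, with a median of −0.059, and 1 was 2-fold higher and 2 were 2-fold lower, against 2.63% and 2.19% of all symbols. Without the 2 genes that carried the multiple, among them Rad52, the counts were 14 higher and 17 lower, with 1 past 2-fold in each direction. Brca1, the scaffold of end resection, had 14.7 FPKM in BMN and 18.3 in BMN/PAZA-2, and Brca2, a mediator of strand exchange, had 8.46 and 6.85 FPKM. Gen1, a resolvase of Holliday junctions, had 17.2 and 7.42 FPKM, a centred ratio of −1.01. Fancc, a subunit of the Fanconi core complex, had 0.252 and 1.949 FPKM, a centred ratio of 1.34, and Fancm, which remodels stalled forks, had 7.79 and 3.74 FPKM.

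The excision, mismatch and end-joining list gave different counts with and without the multiple. As listed, 28 of 40 genes were lower, with a median of −0.21, and 6 were 2-fold lower, against 2.19% of all symbols. All 6 were among the 12 genes with the multiple, Ercc1, Fen1, Polb, Ddb1, Ercc4 and Xpc. The other 28 genes had 11 higher and 17 lower, none past 2-fold, and a median of −0.084. Pms2, of mismatch repair, had 11.7 FPKM in BMN and 17.4 in BMN/PAZA-2. Msh6, which recognises mismatches, had 25.9 and 14.2 FPKM, and Aptx, which repairs adenylated ends, had 3.11 and 1.12 FPKM.

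DNA replication genes behaved alike in this respect. Of 33 genes 22 were lower and 6 were 2-fold lower, against 2.19% of all symbols. The 6 (Tyms, Pold1, Rfc3, Prim1, Pcna and Rpa3) were all among the 11 that carried the multiple. The other 22 genes were split into 11 higher and 11 lower, with a median of 0.0075 and none past 2-fold. The helicase subunit Mcm4 had 62.0 and 41.2 FPKM, Mcm2 had 12.2 and 13.6 FPKM, and Orc6, of the origin recognition complex, had 40.1 and 46.2 FPKM.

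Damage checkpoint genes had no symbol with the multiple, and 9 of 15 were lower with a median of −0.055. Clspn, which helps ATR to activate CHK1, had 24.7 FPKM in BMN and 7.83 in BMN/PAZA-2, a centred ratio of −1.44. In the other libraries Clspn had more than 20 FPKM in Control, 8.27 in PAZA and 8.48 in the low-dose combination. Atm, the kinase that responds to double-strand breaks, had 8.69 and 14.5 FPKM, Chek2 had 7.21 and 3.35 FPKM, and Chek1 had 26.2 and 26.4 FPKM. Of 27 targets of p53, 16 were lower and 2 were 2-fold lower, against 2.19% of all symbols. These were Perp at 20.6 and 2.44 FPKM and the death gene Pmaip1 at 4.67 and 1.61 FPKM. Perp also holds desmosomes together in the epidermis and is a member of that marker list. Cdkn1a, the cell cycle inhibitor p21, had 5.33 and 3.10 FPKM.

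Genes of mitosis and G2 were lower for 25 of 28 members, with a median of −0.22 and none past 2-fold. The median exonic length of the list was 4435 bases. Protein-coding genes of 4000 to 8000 bases at 10 FPKM or more, without the symbols at the multiple, had a median of −0.17. Mki67, a marker of cycling cells, had 108 FPKM in BMN and 63.1 in BMN/PAZA-2, and the kinetochore motor Cenpe had 41.3 and 23.7 FPKM. Nek2 and Aurkb, kinases of the mitotic spindle, had 30.1 and 19.5 FPKM and 19.4 and 12.7 FPKM. The 3 genes on the higher side were Ccnb2, Cdk1 and Cenpa.

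**Figure D3:**
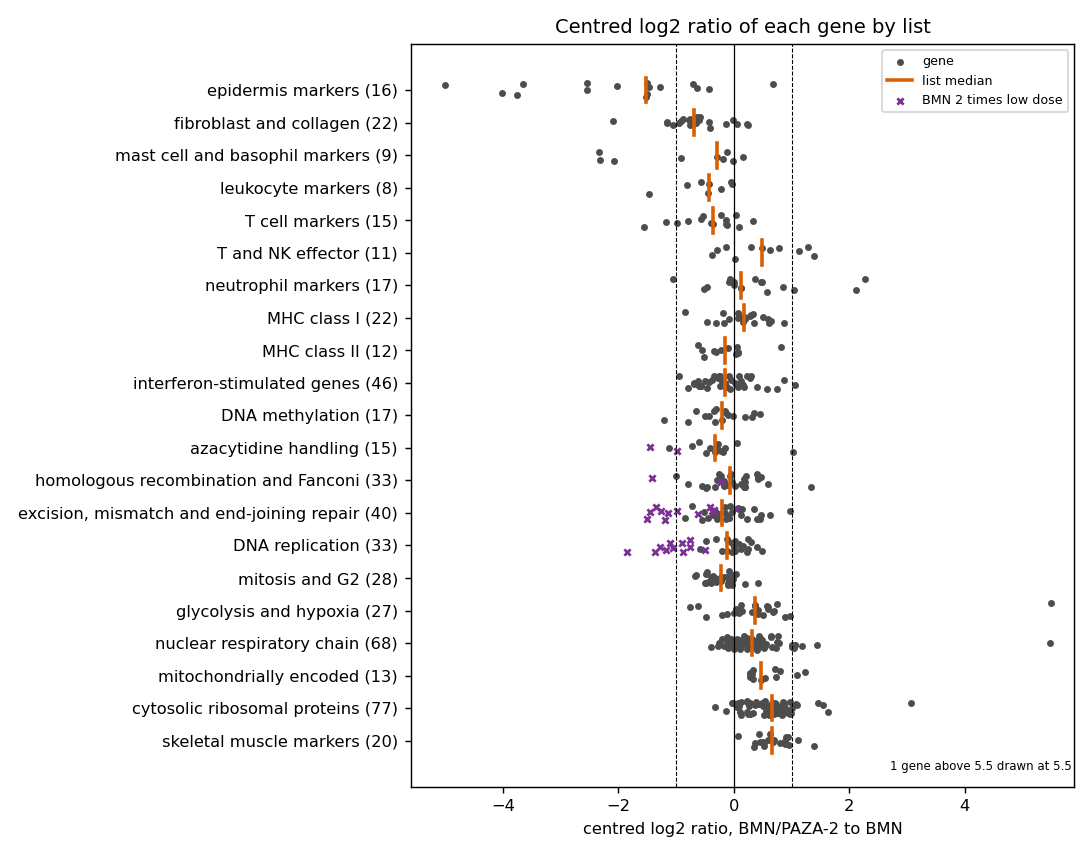
Centred log2 ratio of each measured gene, by list, with the number of genes in brackets. Bars are list medians, dashed lines mark 2-fold, and crosses are genes whose BMN value is 2 times the low-dose value. The crosses hold all 2-fold lower genes of the replication and of the excision, mismatch and end-joining lists.

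The lowest protein-coding genes in BMN/PAZA-2 were those of the epidermis. Bulk RNA holds all cells of a sample, and fewer cells of a type cannot be told apart from less RNA per cell. Of 16 measured epidermis markers 15 were lower and 12 of them at least 2-fold, with a median of −1.52, against 2.19% of all symbols that were 2-fold lower. Flg encodes filaggrin, the protein that bundles keratin in the outer skin, and lies on chromosome 3 from 93273523 to 93293686. Flg had 44.8 FPKM in BMN and 0.328 in BMN/PAZA-2. The keratins of the basal layer, Krt5 and Krt14, had 35.0 and 1.48 FPKM and 32.7 and 0.934 FPKM. Krt1, a keratin of the layers above, had 22.3 and 0.723 FPKM. The exception was Sbsn, which encodes suprabasin, at 27.2 and 41.0 FPKM.

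For all of these markers but Sbsn, BMN was the highest of the 5 libraries. Krt5 was at 10.4 FPKM in Control, 1.33 in PAZA and 0 in the low-dose combination, and Flg was at 1.38, 0 and 0.670 FPKM. Control and PAZA values come from a table scaled separately, in which the PAZA library differed from its other table by a factor of 0.987. The desmosomal genes Dsp and Dsc3 belonged to the 15 lowest of the comparison, at 20.8 and 0.796 FPKM and 11.2 and 0.467 FPKM. Trp63, the transcription factor of the basal layer, had 3.25 and 0.432 FPKM. The label of cultured LLC cells names no skin. How much skin each tumor sample contained was not tested.

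Genes of fibroblasts and collagen were lower for 19 of 22 members, with a median of −0.69, and 4 were 2-fold lower, against 2.19% of all symbols. Postn, a matrix protein that binds collagen, lies on chromosome 3 from 54361109 to 54391037 and had 121 FPKM in BMN and 25.5 in BMN/PAZA-2. The other libraries had 39.6 FPKM in Control, 39.9 in PAZA and 23.2 in the low-dose combination, so BMN was the highest of the 5. Col3a1 had 287 and 129 FPKM, Col1a1 had 28.4 and 15.2 FPKM, and Col1a2 had 22.6 and 11.9 FPKM. Thy1, a surface protein of fibroblasts and T cells, had 73.2 and 30.1 FPKM, and Dpt had 3.48 and 0.867 FPKM. Col6a3, Fap and Pcolce, an enhancer of procollagen processing, were on the higher side, with Pcolce at 103 and 113 FPKM.

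Mast cell genes followed the same direction. Of 9 markers 8 were lower, and the 3 granule proteases Cpa3, Mcpt4 and Cma1 were 2-fold lower, against 2.19% of all symbols. Cpa3 had 24.4 FPKM in BMN and 3.74 in BMN/PAZA-2, Mcpt4 had 8.72 and 0.793 FPKM, and Cma1 had 13.9 and 2.30 FPKM. Cpa3 had between 4.44 and 6.54 FPKM in the other 3 libraries, again below BMN. Kit, the receptor that mast cells need, had 1.16 and 1.26 FPKM.

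Skeletal muscle markers went the other way, with 20 of 20 higher and a median of 0.65, and 2 were 2-fold higher, against 2.63% of all symbols. Acta1, the actin of the sarcomere, had 10.3 FPKM in BMN and 14.9 in BMN/PAZA-2. Ckm, the creatine kinase of muscle, had 4.48 and 6.85 FPKM, Mylpf had 13.7 and 18.6 FPKM, and Des had 3.02 and 6.23 FPKM. Myoz1, a protein of the Z disc, had 0.0963 and 1.66 FPKM and Myh2 had 0.0742 and 1.16 FPKM, the only 2 past 2-fold. The summed level of the list was 137 FPKM in BMN and 193 in BMN/PAZA-2, against 15.4 in Control, 57.2 in PAZA and 13.9 in the low-dose combination. Ckm was listed at 0 and Acta1 at 0.984 FPKM in the low-dose combination, whereas Des had 2.39 FPKM there. For the low-dose combination against BMN, the median of the list was −1.78, whereas that of epidermis markers was −2.00 and that of fibroblast genes −0.84. Both comparisons share the BMN library.

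**Figure D4:**
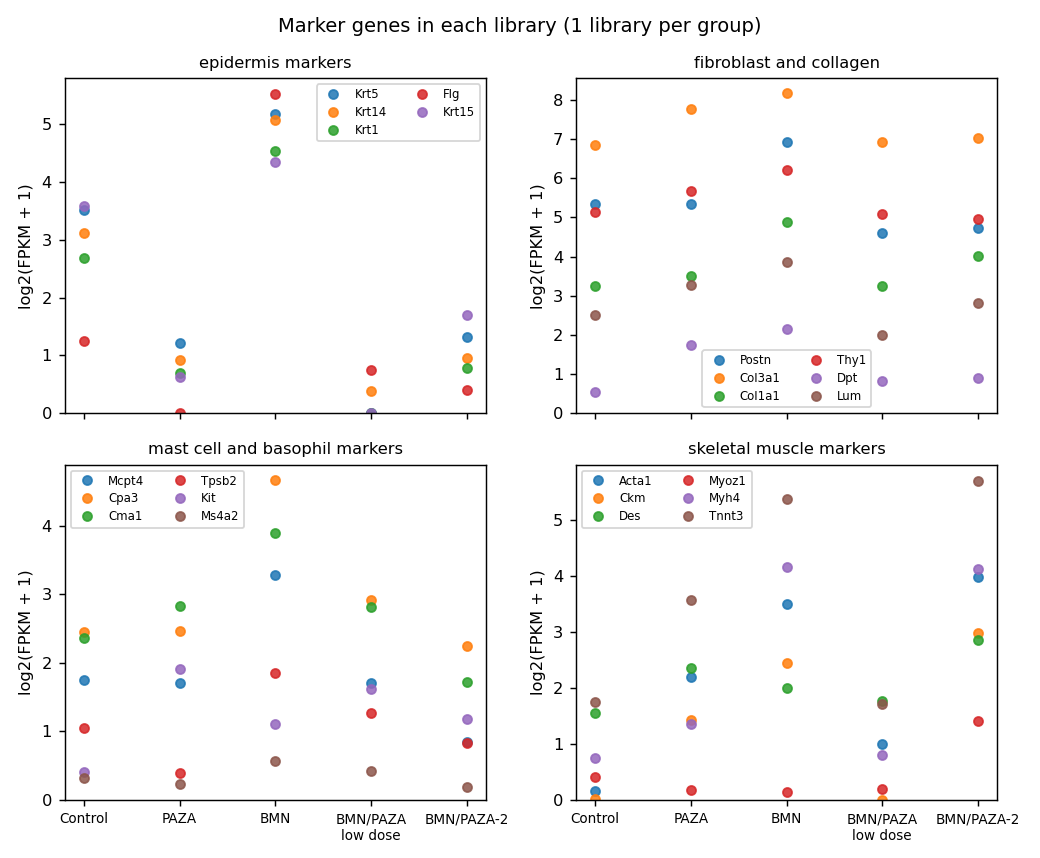
Levels as log2(FPKM + 1) of 4 groups of markers in each of the 5 libraries, 1 point per gene and library, with Control and PAZA from a separately scaled table. The epidermis markers, Postn and the mast cell proteases are highest in BMN, and Acta1, Ckm, Myh4 and Tnnt3 are higher in BMN and BMN/PAZA-2 than in the other 3.

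Each library was then set against the other 3. Among 330 genes at least 2-fold higher with values in all 5 libraries, only BMN lay outside the range of the other 3 libraries for 89, only BMN/PAZA-2 for 85 and both for 138. For the 247 genes at least 2-fold lower, these counts were 75, 40 and 125. Over all 10553 genes they were 2275, 2161 and 3106. A gene with a 2-fold difference between a pair of libraries is more likely than others to have one of them outside the range of the rest. The control level was nearer to BMN/PAZA-2 than to BMN for 40.3% of the higher and 49.8% of the lower genes, against 41.3% of all 10553 genes. The PAZA level was nearer to BMN/PAZA-2 for 57.3% of the higher and 57.5% of the lower genes, against 55.8% of all. The low-dose level was nearer for 198 of the 330 higher genes and 64.4% of the lower genes, against 56.0% of all. These counts leave out symbols below 1 FPKM in both BMN and BMN/PAZA-2, those with the multiple and those whose symbol stands for several genes. Symbols whose low-dose values differed over 10-fold between tables are left out too.

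Leukocyte markers were lower for 8 of 8 genes, with a median of −0.43. Only Rac2, a GTPase of blood cells, was 2-fold lower, against 2.19% of all symbols. It had 24.0 FPKM in BMN and 7.46 in BMN/PAZA-2. Ptprc, which encodes CD45, had 23.9 and 16.3 FPKM, Itgb2 had 31.7 and 19.5 FPKM, and Coro1a had 6.44 and 5.67 FPKM. Monocyte markers were lower for 10 of 13 genes, with the chemokine receptor Ccr2 at 44.5 and 20.4 FPKM, Ly6c2 at 17.1 and 7.57 FPKM and Chil3 at 4.10 and 2.29 FPKM. Among macrophage genes, Adgre1 (F4/80) had 14.9 and 5.79 FPKM and Fcgr1 had 10.9 and 3.79 FPKM, both 2-fold lower. Csf1r at 9.34 and 7.99 FPKM and Cd68 at 29.1 and 26.8 FPKM did not follow them. The 18 macrophage genes as a whole had a median of −0.083.

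T cell markers were at or below 2.2 FPKM in both libraries. Of 15, 12 were lower in BMN/PAZA-2, with a median of −0.36. The receptor chain Trac had 2.14 FPKM in BMN, and Lck, the kinase of T cell receptor signaling, had 1.41 FPKM, and both were listed at 0 in BMN/PAZA-2. Cd3e had 0.858 FPKM and was listed at 0, whereas Cd3d had 0.149 and 0.103 FPKM and Cd3g had 0.793 and 1.11 FPKM. At these levels and with unknown depth, a value of 0 may be a gene with few or no fragments.

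Genes of the killing machinery did not follow the T cell markers. Of 11 effector genes 8 were higher, 3 of them 2-fold, with a median of 0.49, against 2.63% of all symbols that were 2-fold higher. Gzmc had 1.33 FPKM in BMN and 4.71 in BMN/PAZA-2, Gzmd had 0.406 and 1.87 FPKM, and Gzmf had 0.143 and 1.58 FPKM. These granzymes were highest in Control, at 13.3, 15.8 and 14.7 FPKM. Gzmb, the main granzyme of cytotoxic T cells, had 2.39 and 3.42 FPKM, and the pore protein Prf1 had 0.611 and 0.848 FPKM. Ifng had 0.311 FPKM in BMN and was listed at 0 in BMN/PAZA-2. Of 9 NK cell markers 4 were higher and 5 lower. Klrk1, the receptor NKG2D, had 4.58 and 1.37 FPKM, and Ncr1 had 1.17 and 0.694 FPKM. Klra4, a receptor of the Ly49 family, had 5.31 and 9.57 FPKM.

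S100a8 and S100a9 are the subunits of calprotectin that fill the cytosol of neutrophils. They were among the 15 highest protein-coding genes once values below 1 FPKM and symbols of several genes were left out. That choice was made after the values were seen. S100a8 lies on chromosome 3 from 90668978 to 90670035 and had 16.4 FPKM in BMN and 77.2 in BMN/PAZA-2. S100a9 had 12.7 and 54.6 FPKM. The other 3 libraries lay between 19.6 and 39.1 FPKM for S100a8, so BMN was the lowest and BMN/PAZA-2 the highest of the 5. Of the 17 neutrophil genes 12 were higher and 5 lower, with 3 at least 2-fold higher and 1 at least 2-fold lower, against 2.63% and 2.19% of all symbols. Ltf, of the neutrophil granules, was listed at 0 in BMN and at 0.930 FPKM in BMN/PAZA-2. Other members were Csf3r at 1.901 and 1.55 FPKM, Cxcr2 at 2.60 and 2.67 FPKM and Il1b at 25.9 and 11.03 FPKM. The list of 17 had a median of 0.13, which was −0.096 after scaling both libraries to the same total.

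Antigen presentation by MHC class I had 16 of 22 genes higher and a median of 0.18, none past 2-fold, and −0.080 after scaling to the same total. H2-K1 had 374 FPKM in BMN and 533 in BMN/PAZA-2, H2-D1 had 152 and 222 FPKM, and the peptide transporter Tap1 had 7.78 and 14.0 FPKM. Nlrc5, the transactivator of these genes, had 20.9 and 10.4 FPKM. For MHC class II, 7 of 12 genes were lower with a median of −0.16, among them H2-Ab1 at 63.7 and 38.01 FPKM and Cd74 at 21.01 and 13.03 FPKM. Low-dose values of Tap1, Nlrc5 and Cd74 did not agree between tables, whereas those of H2-K1, H2-D1 and H2-Ab1 did.

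Interferon-stimulated genes were lower for 29 of 46 members, with a median of −0.16. In this list 1 gene was 2-fold higher, against 2.63% of all symbols. That gene was Bst2, which tethers virus particles to the membrane, at 22.6 FPKM in BMN and 44.9 in BMN/PAZA-2. Ifi44 had 2.95 and 5.70 FPKM, and Ifi27l2a had 12.3 and 5.40 FPKM. Of 22 genes of cytosolic nucleic acid sensing, 9 were higher and 13 lower. Irf3, the factor that turns on interferon beta, had 4.34 and 11.03 FPKM, a centred ratio of 1.27, and the kinase Tbk1 that activates it had 58.0 and 34.4 FPKM. Ddx58, the sensor RIG-I, had 29.6 and 16.6 FPKM. For Irf3, Tbk1, Ddx58, Bst2 and Ifi44 the values of the low-dose library did not agree between tables, whereas those of Ifi27l2a did. What this means for the BMN values was not tested.

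Ribosomal protein genes were the largest list on the higher side. Of 77 genes of the cytosolic ribosome 73 were higher in BMN/PAZA-2, with a median of 0.66 and 6 past 2-fold, against 2.63% of all symbols. Their summed level was 29050.2 FPKM in BMN and 37163 in BMN/PAZA-2. Rps2 lies on chromosome 17 from 24718116 to 24721929 and had 15.4 FPKM in BMN, 127 in BMN/PAZA-2 and between 17.3 and 34.7 in the other 3. Rpl24 had 75.5 and 219 FPKM and was between 176 and 200 FPKM in the others, so here BMN was the low library. Rps27 had 125 and 341 FPKM, and Rps23 had 189 and 484 FPKM. Ribosomal protein genes have many processed pseudogenes of nearly the same sequence, so their shares of reads are uncertain.

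The ratio also varied with the length of genes. Among protein-coding genes at 10 FPKM or more and without the symbols at the multiple, the median was 0.31 for the 131 genes with at most 1000 bases of exons and −0.24 for the 1066 genes above 8000 bases, with the classes between them in order. Within the class from 1000 to 2000 bases, the 31 ribosomal protein genes had a median of 0.68 and the 461 other genes 0.072. After each class was centred on its own median, the ribosomal list had a median of 0.55. The class from 4000 to 8000 bases had a median of −0.17. Lists with a median length in that class included mitosis and G2 (4435 bases, −0.22) and DNA methylation (7205 bases, −0.21). Cholesterol and fatty acid synthesis (5371.5 bases) had −0.30, homologous recombination and Fanconi (5774 bases) −0.059 and drug efflux (7990 bases) 0.36. The part of fragment size or RNA quality in the trend with length was not tested.

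**Figure D5:**
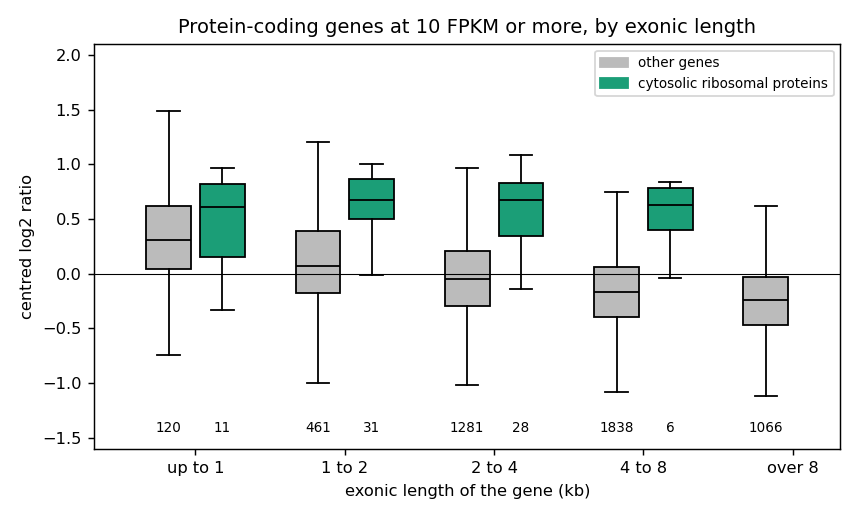
Centred log2 ratio of protein-coding genes at 10 FPKM or more by exonic length in kb, ribosomal protein genes apart from others, with the number of genes under each box. Boxes span the quartiles with the median as a line, whiskers reach at most 1.5 times that span, and genes beyond them and the 144 symbols at the multiple are not drawn. The median of other genes goes from 0.31 in the shortest class to −0.24 in the longest.

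Genes of the respiratory chain were higher as well. Of 68 nuclear-encoded genes 53 were higher, 8 of them 2-fold against 2.63% of all symbols, with a median of 0.31, which was 0.15 after centring by length class. The 8 include Atp5o, whose symbol stands for 2 gene IDs and from which no difference is read. Uqcr11, a small subunit of complex III, had 5.37 FPKM in BMN and 15.1 in BMN/PAZA-2, and Ndufb8 and Ndufb2, subunits of complex I, had 24.6 and 53.1 FPKM and 14.2 and 28.5 FPKM. All 13 mitochondrially encoded genes were higher, with a median of 0.47, which was 0.20 after centring by length class. mt-Co1, the catalytic subunit of complex IV, had 6991 FPKM in BMN and 11291 in BMN/PAZA-2. mt-Nd3 at 4.07 and 10.2 FPKM and mt-Co3 at 9.60 and 20.2 FPKM were past 2-fold, against 2.63% of all symbols. Both lay far below the median level of the 13 genes, which was 1695 FPKM in BMN. How reads were shared among these genes was not tested. For the low-dose combination against BMN, the mitochondrial median was −0.36, that of the nuclear-encoded genes 0.37 and that of the ribosomal proteins 0.86. Both comparisons share the BMN library.

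Genes of glycolysis and the response to low oxygen were higher for 21 of 27 members, with a median of 0.36, and only Aldoa, which also stands for 2 gene IDs, was past 2-fold. Bnip3, a mitophagy receptor induced in hypoxia, had 30.9 FPKM in BMN and 57.6 in BMN/PAZA-2. The lactate exporter Slc16a3 had 7.35 and 13.4 FPKM, the glucose transporter Slc2a1 had 14.9 and 23.8 FPKM, and Ldha had 196 and 276 FPKM. Hk1 had 85.5 and 46.7 FPKM. Outside the list, the lipid droplet gene Hilpda had 2.91 and 11.5 FPKM, with 7.36 FPKM in Control and 12.1 in the low-dose combination. It was among the 15 highest protein-coding genes once values below 1 FPKM and symbols of several genes were left out. That choice was made after the values were seen.

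Small RNAs were the class with the highest share of 2-fold differences. Small nucleolar RNAs (snoRNAs) guide the chemical modification of ribosomal RNA, those with C and D boxes for methylation of ribose and those with an ACA box for pseudouridine, and most are cut from introns of host genes. Of 54 small RNAs with a value, Rnu3b4 and Snora16a were left out because their low-dose values differed over 10-fold between tables. Of the other 52, 47 were higher in BMN/PAZA-2, with a median of 1.38. Of these 31 were at least 2-fold higher and none was 2-fold lower, against 2.63% and 2.19% of all symbols. They are between 84 and 414 bases long, with a median of 138.5 bases. Libraries of long RNA recover RNAs of this size unevenly, and how the RNA of each sample was selected by size is not given in the sources used here.

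The sequences of 3 snoRNAs listed at 0 in BMN are shown to make plain how short these genes are. They are from GENCODE M21 (GRCm38), 5′ to 3′, with the C box TGATGA and the D box CTGA in capitals in the first pair and the ACA box in Snora64.
Snord33: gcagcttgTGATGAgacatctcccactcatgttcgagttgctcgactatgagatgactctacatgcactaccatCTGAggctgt
Snord89: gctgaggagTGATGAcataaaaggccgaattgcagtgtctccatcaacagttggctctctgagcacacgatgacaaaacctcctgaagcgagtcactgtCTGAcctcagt
Snora64: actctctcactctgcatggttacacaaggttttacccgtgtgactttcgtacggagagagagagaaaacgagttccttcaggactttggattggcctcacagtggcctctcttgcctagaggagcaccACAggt

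The boxes were searched on the transcribed strand, with TGATGA in the first 20 bases and CTGA in the last 15, and with ACA before the last 3 bases. Of 1507 snoRNA transcripts in the annotation, 20.2% held the C and D boxes and 18.3% the ACA box by these rules.

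Snord33 lies on the minus strand at chr7:45126864-45126947, within Rpl13a, and was listed at 0 in BMN and at 1487 FPKM in BMN/PAZA-2. Its host Rpl13a had 526 and 699 FPKM. Snora64 lies on the plus strand at chr17:24720772-24720905 within Rps2, the ribosomal gene with the highest ratio, and was listed at 0 and at 32.7 FPKM. Snord89, on the minus strand at chr1:39548745-39548854, was listed at 0 and at 66.1 FPKM.

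In the low-dose combination Snord33 had 3748.5 FPKM whereas Snord89 and Snora64 were listed at 0, as they were in BMN. Other snoRNAs among the 15 highest symbols included Snord22, Snora52, Snora57 and Snora36b, each at 0 in BMN and between 17.95 and 70.0 FPKM in BMN/PAZA-2. Snora43, listed at 0.00131 and 23.01 FPKM, stands for 2 gene IDs in the annotation. The 23 host genes with a value had a median of 0.51, with 15 higher. Snora75 had 15.9 and 96.3 FPKM whereas its host Ncl, a nucleolar protein gene, had 433 and 231 FPKM.

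Structured RNAs of the same class outside the snoRNAs were not all on the same side. Rn7sk, the RNA that holds back the elongation factor P-TEFb, had 34646 FPKM in BMN and 58529.8 in BMN/PAZA-2, and Rpph1, the RNA of RNase P, had 336 and 1214 FPKM. Rny1 was nearly level at 1322 and 1318 FPKM, and Rny3 had 1530 and 880 FPKM. The nuclear-retained RNAs Malat1 and Neat1 had 2975 and 4398 FPKM and 34.1 and 55.6 FPKM.

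Not every high symbol is a difference between the tumors. For 12 symbols the low-dose library, which is the same RNA in each table, differed over 10-fold between the table with BMN and the table with PAZA, and 11 of the 12 have a repeated symbol or more than 1 gene ID. Aldoa, the aldolase of glycolysis, was listed at 0 in BMN and 207 FPKM in BMN/PAZA-2, and its low-dose value was 0 in the table with BMN and 277 in the table with PAZA. Atp5o had 0.0623 and 43.1 FPKM, with low-dose values of 0 and 55.9, and Rmrp had 44.2 and 2343 FPKM, with 156 and 3151. Of these 12 symbols 10 were called 2-fold higher, among them Zfp91, Pakap and Ddit3, and they hold 5 of the 15 highest symbols. Their BMN values may belong to another gene of the same symbol, so no difference is read from them. Zc3h11a, also among the 15 highest at 0.6999 and 32.8 FPKM, has a repeated symbol too.

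Without such symbols, small RNAs and values below 1 FPKM, a choice made after the values were seen, the highest protein-coding genes after Rps2 were Ccdc120, Srp54b, S100a8, Rnf31 and Foxn3. Ccdc120, a protein of cell junctions and centrosomes, had 1.31 FPKM in BMN and 10.2 in BMN/PAZA-2, and below 0.61 FPKM in each of the other 3 libraries. Foxn3, a forkhead repressor, had 4.07 and 20.7 FPKM and at most 5.00 FPKM elsewhere. Rnf31, a subunit of the ligase that makes linear ubiquitin chains, had 1.72 and 11.2 FPKM, with 2.40 in Control and 1.91 in PAZA. In these genes BMN/PAZA-2 was the highest of the libraries with a value.

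At the lower end, symbols outside the epidermis were the mast cell gene Cpa3, given above, Csf2rb, Limch1, Crabp1, CSTDC5 and the pseudogenes Rpl39-ps and Tma7-ps. Csf2rb, the shared receptor chain for GM-CSF and interleukins, had 18.3 FPKM in BMN and 1.76 in BMN/PAZA-2, against 1.61 in Control and 3.09 in PAZA. Its low-dose values did not agree between tables. Limch1, which activates myosin, had 28.4 and 4.08 FPKM, and Crabp1, which binds retinoic acid, had 21.5 and 3.04 FPKM. CSTDC5 had 17.1 FPKM and was listed at 0 in BMN/PAZA-2. Rpl39-ps had 19.7 FPKM and was listed at 0, and Tma7-ps had 49.0 and 3.11 FPKM.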

How the data were processed

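RNA of 5 groups with 1 library each was sequenced by the authors and mapped to GRCm38. HISAT2 and StringTie are named in the submitters' processing notes, and their versions are not given in the sources used here. The authors deposited 5 tables of 2 groups each, whose values were read as FPKM because library sums differ and StringTie writes this unit. The values are not named in the tables, and no counts or depths are given. The columns of BMN and BMN/PAZA-2 of 1 table were used. Of rows with a repeated symbol (15 symbols) the one with the highest mean was kept.

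The log2 ratio was taken after adding 1 and centred on the median. With 1 library per group no test was run, and no interval for the difference between the libraries could be computed. The members and gene lists (49) were chosen with earlier results of these data known. Named genes were the drug target and azacytidine lists, the 15 highest and lowest symbols at 10 FPKM or more without symbols at the multiple and predicted genes, up to 4 members per list with the largest difference at 1 FPKM or more, and the first 3 genes of each cell type list. Other genes named were chosen after their values were seen. Ms4a1, Klrb1c and Hba-a2 were not analysed here, and some genes and 1 sequence are not reported here.

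Low-dose values are given where the 3 tables with that library agree within 0.5% after the median ratio, or beside the multiple and the symbols of several genes. Gene positions, biotypes and exonic lengths are from GENCODE M21, in which 14276 of 14460 symbols were found, the longest gene where a symbol has several. Ratios, the multiple and the calls were tested on simulated data. Tables were computed with pandas 2.3.3 and numpy 2.4.6 under Python 3.11.15, and plots drawn with matplotlib 3.10.9.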

Additional observations from a re-analysis of the deposited data

How the results depend on the processing

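No paired analysis was possible because each group has 1 library, and the depth, which limits every weakly expressed gene, is unknown. Of 12 other settings, 7 were planned and 5 were chosen after seeing the data. With a pseudocount of 0.1 in place of 1, 1390 symbols were at least 2-fold higher and 1104 lower, since small values then weigh more. Scaling both libraries to the same total, in which BMN/PAZA-2 has 1.13 times the sum of BMN, gave 211 higher and 655 lower. In the other 10 settings both counts stayed within 1.5 times the reported ones, with 252 lower without the symbols at the multiple. Among list medians, the scaling to the same total gave −0.44 for DNA methylation, −0.31 for homologous recombination and Fanconi, −0.44 for excision, mismatch and end-joining repair, −0.49 for mitosis and G2, −0.42 for interferon-stimulated genes, −0.92 for fibroblast and collagen, 0.41 for skeletal muscle and 0.38 for ribosomal proteins. Without centring, interferon-stimulated genes had −0.26 and ribosomal proteins 0.56. A pseudocount of 0.1 gave 0.91 for skeletal muscle and 0.73 for ribosomal proteins. Ribosomal proteins had 0.73 with scaling by the median ratio of symbols at 1 FPKM or more in both, and 0.55 with centring by exonic length class. Of the 46 lists with a value in all 12 settings 31 kept their sign, and the 15 others lay within 0.19 of 0 in the main setting. The other 3 lists had no value in some settings. The cause was not tested.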

Other observations

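Chemokine genes, which draw leukocytes into tissue, were higher for 18 of 27 members with a median of 0.18, which was −0.0056 after scaling to the same total. Cxcl2 and Cxcl3, which attract neutrophils, had 4.02 FPKM in BMN and 8.63 in BMN/PAZA-2, and 10.7 and 19.2 FPKM. Pf4 and Ppbp, chemokines of platelets, had 53.02 and 93.7 FPKM and 12.02 and 19.2 FPKM. On the other side were Cxcl5 at 5.76 and 1.70 FPKM, Ccl12 at 53.7 and 25.7 FPKM and the stromal chemokine Cxcl12 at 7.11 and 3.02 FPKM. Among matrix proteases, Mmp12, the elastase of macrophages, had 39.4 and 93.8 FPKM, whereas Mmp2 and Mmp3 of stromal cells had 10.5 and 4.08 FPKM and 9.08 and 4.13 FPKM. The complement protease C2 had 2.35 and 9.53 FPKM, and was between 5.64 and 10.1 FPKM in the other 3 libraries.

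Genes of cholesterol and fatty acid synthesis were lower for 18 of 22 members, with a median of −0.30. Hmgcs1, the enzyme before the rate-limiting step of sterol synthesis, had 57.2 FPKM in BMN and 36.0 in BMN/PAZA-2, the fatty acid synthase Fasn had 31.7 and 20.4 FPKM, and their regulator Srebf1 had 18.2 and 10.98 FPKM. Mvk, the mevalonate kinase, was 2-fold higher at 0.811 and 2.53 FPKM. Immediate early genes included Egr1 at 4.72 and 1.21 FPKM, Fos at 12.6 and 6.19 FPKM and Zfp36 at 6.93 and 2.84 FPKM. Hspa1b, an inducible heat shock protein gene, had 1.81 and 5.77 FPKM, whereas Hsp90aa1 had 1086 and 662 FPKM. The germline gene Rhox5 on the X chromosome, which is silenced by methylation in most somatic cells, had 835 and 795 FPKM.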
